A study of Homo sapiens with 2 samples.

Results

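The EGF receptor family and its ligands were examined as 7 named genes: the receptor genes EGFR, ERBB2 and ERBB3 and the ligand genes AREG, EREG, HBEGF and TGFA. They were chosen by name, and 6 of them were among the 12918 genes matched in the deposited table. No listed transcript was matched to EREG, which encodes epiregulin, so it was not analysed here. The 6 genes had 21 listed transcripts, and all 6 reached the 1 FPKM in at least 1 library that was set as a filter.

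The cells were MDA-MB-231, an established human breast cancer line of the triple-negative class, meaning that it lacks the oestrogen and progesterone receptors and amplified ERBB2. One group was transfected with si-NC, a negative control, and the other with a Smart Silencer against the long noncoding RNA THAP7-AS1, a commercial reagent that combines siRNAs with antisense oligonucleotides. RNA was taken at 48 h, and each group had 1 RNA-seq library of this 1 line. FPKM counts fragments per length of transcript, scaled to the library's mapped total, so levels can be set side by side between genes.

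The silenced library is the column headed si-v, assigned to it by elimination, and every direction below depends on that. Values are given first with si-NC, the control library, and then with si-v. Of the 3 annotated transcripts of THAP7-AS1, 0 were listed, so the target could not be used as a check. With 1 library per group there is no spread between cultures, no test is possible, and each difference describes these 2 libraries. Listed transcripts held about 7830000 fragments with si-NC and 8320000 with si-v. Of the line's markers, the oestrogen receptor gene ESR1 was listed at 0 in each, the E-cadherin gene CDH1 stood at 0.0845 and 0.122 FPKM, and the mesenchymal filament gene VIM at 344 and 373, while PGR and SPARC were not analysed here. The luminal keratin genes KRT8 and KRT18 were also high, at 294 and 305 FPKM and at 126 and 138. The luminal genes GATA3 and FOXA1 stood at 2.65 and 2.18 and at 0.228 and 0.359. Of 8 fibroblast and leukocyte markers 2 were listed, COL1A1 at 0.482 and 1.14 FPKM and CD14 at 0.484 and 0.367.

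The receptors of this family are tyrosine kinases that pair with one another when a ligand binds outside the cell. EGFR binds amphiregulin, epiregulin, HB-EGF and TGF-alpha, which are made as membrane-anchored precursors and released by ADAM proteases. ERBB2 has no known soluble ligand and serves as a partner, and ERBB3 binds neuregulins but has little kinase activity of its own. Basal-like and mesenchymal breast lines such as this one are known for high EGFR and low ERBB2 and ERBB3.

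ERBB2 was the member that differed most. It stood at 4.65 FPKM with si-NC and at 17.4 with si-v, a 3.75-fold higher level. The other receptor genes and the ligand genes all lay within 1.5-fold on the log2 scale used here. That scale is log2((si-v + 1)/(control + 1)), where the added 1 FPKM shrinks the ratio of low genes, and on it ERBB2 was at 1.71. At the threshold of 2-fold, 1 of 6 members was higher and 0 were lower, where 2.37% of 11046 genes were higher and 2.49% lower. Only 39 genes, 0.353% of those past the filter, had a ratio as high as that of ERBB2 or higher. The median of the 6 members was -0.08 and that of all genes 0.00.

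**Figure D1:**
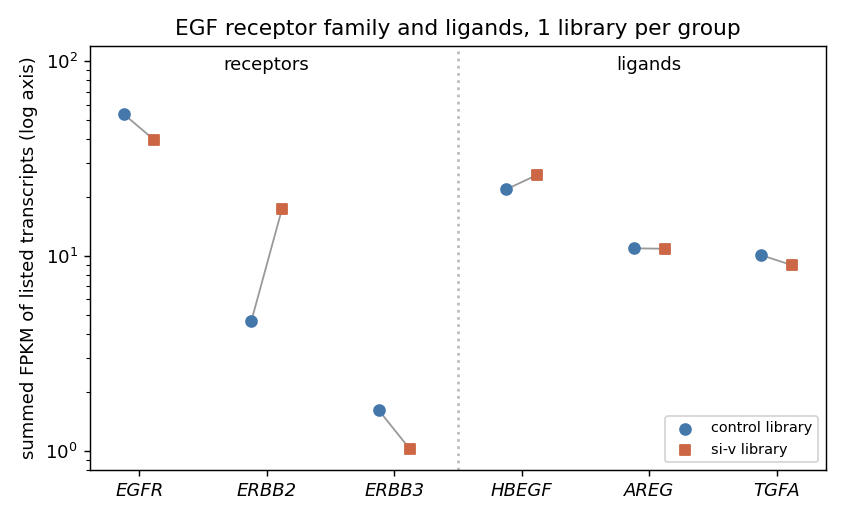
Summed FPKM of the listed transcripts of each gene (vertical log axis) in the control library (circles) and the si-v library (squares), 1 library per group, with a line joining the 2 values of a gene. ERBB2 goes from 4.65 to 17.4 and passes AREG and TGFA, while the order of the other 5 genes is the same in both libraries. Without its incomplete transcript ERBB2 sums to 10.1 with si-v, below AREG at 10.9.

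The difference in ERBB2 changed the order of levels. With si-NC the order was EGFR, HBEGF, AREG, TGFA, ERBB2 and ERBB3. With si-v ERBB2 came directly after EGFR and HBEGF. That place depends on an incomplete ERBB2 transcript, described below, which stood at 2.23 FPKM with si-NC and 7.39 with si-v. Without that transcript ERBB2 summed to 2.43 FPKM with si-NC and 10.1 with si-v. The latter value lies below AREG at 10.9 and above TGFA at 8.97. The ratios and the receptor sum that follow include the incomplete transcript. The EGFR level was 11.5 times that of ERBB2 with si-NC and 2.26 times with si-v, and the ERBB2 level was 2.89 times that of ERBB3 with si-NC and 17.0 times with si-v. Summed over the 3 receptor genes the level was 59.8 FPKM with si-NC and 57.8 with si-v.

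The gene for ERBB2 (ENSG00000141736.13) lies on chromosome 17, at chr17:39687914-39730426 on the plus strand of GRCh38 in GENCODE release 29; the deposited values were made on hg19. Of its 11 annotated coding transcripts 7 were listed. They differ in where they start, in what they encode at the amino end, and in 2 exons, and the stretches of coding sequence below show those differences because the values of these transcripts are given next. Exons are numbered along ERBB2-201, the full-length receptor mRNA of 1255 codons. At the coding start, capitals mark the first exon of each transcript, and the lower case bases belong to exon 2. The ERBB2-201 first exon encodes the signal peptide that brings the receptor to the membrane. ERBB2-202 begins its coding sequence inside exon 2, as ERBB2-205 and ERBB2-219 also do.
ERBB2-201: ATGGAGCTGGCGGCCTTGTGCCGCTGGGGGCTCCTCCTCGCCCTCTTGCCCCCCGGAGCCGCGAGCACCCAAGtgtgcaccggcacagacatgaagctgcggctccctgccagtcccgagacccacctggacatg
ERBB2-204: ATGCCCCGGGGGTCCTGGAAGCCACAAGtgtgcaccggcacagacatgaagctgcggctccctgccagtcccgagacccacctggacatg
ERBB2-202: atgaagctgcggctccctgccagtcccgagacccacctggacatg

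The next pair runs from exon 15 into exon 17, with the 48 bases of exon 16 in capitals. ERBB2-210, an incomplete annotated transcript of 754 bases, joins exon 15 to exon 17 directly. A receptor form without exon 16 is known from breast tumours.
ERBB2-201: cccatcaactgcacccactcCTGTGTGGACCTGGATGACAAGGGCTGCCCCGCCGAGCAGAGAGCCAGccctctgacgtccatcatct
ERBB2-210: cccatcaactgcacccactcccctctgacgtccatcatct

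The last pair starts in exon 25. Capitals mark the start of exon 26 in ERBB2-201 and, in ERBB2-218, which lacks exon 26, the last coding bases, which lie in exon 27. ERBB2-218 encodes 1055 codons and so ends before much of the receptor's tail.
ERBB2-201: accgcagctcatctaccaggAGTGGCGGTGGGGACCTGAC
ERBB2-218: accgcagctcatctaccaggAATATG

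All 7 listed ERBB2 transcripts were higher with si-v, by different amounts. ERBB2-201 stood at 0.614 FPKM with si-NC and 1.09 with si-v, and ERBB2-202 at 0.551 and 1.02. ERBB2-218, without exon 26, stood at 0.231 and 2.35. ERBB2-205, which ends just after exon 15 and encodes extracellular sequence only, stood at 0.958 and 3.33. The full-length ERBB2-201 differed by 1.77-fold (95% interval of the log2 ratio from counting error 0.16 to 1.49), ERBB2-202 by 1.85-fold (0.18 to 1.57) and ERBB2-205 by 3.48-fold (1.15 to 2.44). These 3 intervals overlap, and whether the 3 ratios differ was not tested. ERBB2-218 differed by 10.2-fold, and its interval of 2.43 to 4.58 lies above that of ERBB2-201. ERBB2-219, which has the most distant start and 31 exons, stood at 0.0722 and 1.26 FPKM. ERBB2-204 was listed at 0 with si-NC and stood at 1.01 with si-v. ERBB2-210, without exon 16, had the highest level of the 7 in both libraries, at 2.23 and 7.39.

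**Figure D2:**
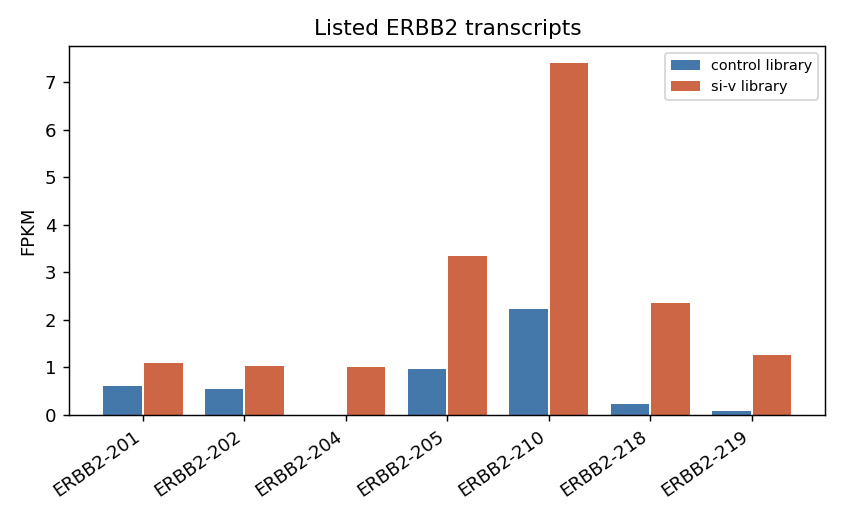
FPKM (vertical axis, from 0) of each of the 7 listed ERBB2 transcripts in the control library (left bars) and the si-v library (right bars), 1 library per group. Each si-v bar is the taller of its pair, and ERBB2-210 is the tallest in both libraries, at 2.23 and 7.39.

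At 2-fold on the log2 scale, 5 of the 7 ERBB2 transcripts were higher. Over all members 18 transcripts reached 0.5 FPKM in at least 1 library, of which the same 5 were higher and 0 lower, where 8.98% of all such transcripts were higher and 7.99% lower. Of these 5, ERBB2-204, ERBB2-218 and ERBB2-219 reached 0.5 FPKM with si-v alone, so the count is partly set by the filter. Transcripts of a gene share most of their bases, so the 7 are not separate observations.

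Grouped by start, the 2 transcripts from the distant start, ERBB2-205 and ERBB2-219, summed to 1.03 FPKM with si-NC and 4.60 with si-v (4.46-fold). Those of the start nearest the signal peptide exon, ERBB2-201 and ERBB2-218, summed to 0.845 and 3.43 (4.06-fold). ERBB2-202, the 1 transcript of the start between them, differed by 1.85-fold. ERBB2-204, which begins at a different first exon, was listed at 0 with si-NC. That exon does not set it apart, since ERBB2-204 holds 0 bases and 0 exon junctions that no other listed ERBB2 transcript holds. Within a start the ratios also differed, with 1.77-fold for ERBB2-201 and 10.2-fold for ERBB2-218, and 3.48-fold for ERBB2-205 and 17.5-fold for ERBB2-219. From counting error, the log2 interval of ERBB2-202 was 0.18 to 1.57. It overlaps that of the nearest start (1.40 to 2.45). It lies below that of the distant start (1.84 to 3.01) and that of ERBB2-204 (from 3.65 up). These intervals take the assignment of shared bases as given, so whether the ratio depends on the start was not tested. ERBB2-210 made up 60.3% of the FPKM of the 6 transcripts that hold exon 17 with si-NC and 52.4% with si-v. This short transcript rests on about 18 and 66 fragments, and no reads over its exon junctions were counted. Its share is therefore not a measure of how much ERBB2 mRNA lacks exon 16. The 5 transcripts with exon 16 summed to 1.47 and 6.72 FPKM.

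Summed over the listed transcripts that hold each exon, the level was higher with si-v at every exon. This follows from every listed ERBB2 transcript being higher, so it is not a separate observation. Exons 2 to 14, which encode most of the extracellular part, stood at 2.43 and 10.1 FPKM (4.15-fold). Exons 17 to 20, which cover the membrane span and the start of the kinase, stood at 3.69 and 14.1 (3.82-fold). Exons 22 to 25 stood at 1.47 and 6.72 (4.58-fold), and exon 26 at 1.24 and 4.38 (3.54-fold). The ratio of these sums lay between 3.54 and 4.58, where most exons share the same transcripts. They are sums of the authors' transcript values, not counts of reads on each exon. Whether reads were higher along the whole gene was therefore not tested.

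**Figure D3:**
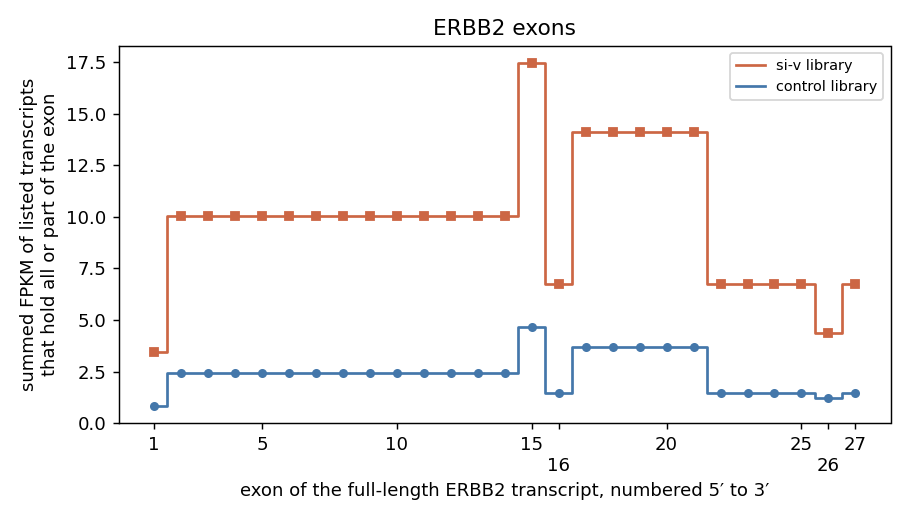
Summed FPKM (vertical axis) of the listed transcripts that hold all or part of each exon of ERBB2-201 (horizontal axis, exons 1 to 27) in the control library (circles) and the si-v library (squares). The si-v line lies above the control line at every exon, which follows from every listed transcript being higher. The step at exon 15 counts ERBB2-210, and the dips at 16 and 26 are exons that some transcripts lack.

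The depth behind ERBB2 was modest. Its values rest on about 116 fragments with si-NC and 509 with si-v. The length-weighted log2 ratio, which follows fragments and has no added constant, was 2.01 with a 95% counting interval of 1.72 to 2.32 (exact Clopper-Pearson, counting error only, as for every interval given here). For single transcripts the fragments were few, with about 31 and 59 for ERBB2-201, 9 and 104 for ERBB2-218, 4 and 72 for ERBB2-219 and 18 and 66 for ERBB2-210. The bases that identify a transcript are fewer still: ERBB2-201, ERBB2-204 and ERBB2-210 hold 0 bases that no other listed ERBB2 transcript holds, and ERBB2-218 holds 56. The gene's total is therefore better fixed than its division among transcripts. Fragments that belong to the 4 coding transcripts not analysed here are outside these sums, and their part in the difference was not tested.

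On the opposite strand ERBB2 overlaps PGAP3 at its distant start and MIEN1 at its far end. PGAP3 stood at 0.00215 FPKM with si-NC and was listed at 0 with si-v, and MIEN1, a gene often co-amplified with ERBB2, stood at 19.2 and 19.8. GRB7, the adaptor gene next along the chromosome, stood at 0.399 and 0.265 FPKM, and STARD3 on the other side at 7.13 and 8.95 (log2 0.29). MIEN1 and STARD3 did not reach 2-fold. PGAP3 and GRB7 did not pass the 1 FPKM filter, and with 1 FPKM added such low values could not show a 2-fold difference.

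EGFR (ENSG00000146648.17; chr7:55019021-55211628, plus strand, GRCh38) was the most abundant member in both libraries, at 53.5 FPKM with si-NC and 39.4 with si-v. The control level was 1.36 times the si-v level (log2 -0.43). Among all genes past the filter 14.9% had a ratio this low or lower, so EGFR did not stand far from the general spread. About 5628 and 4436 fragments gave a length-weighted log2 ratio of -0.46, with a counting interval of -0.52 to -0.40. With 8 coding transcripts annotated and 5 listed, EGFR-201, the full-length receptor of 1210 codons, held 96.4% of the gene's FPKM with si-NC and 94.9% with si-v.

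The lower EGFR value was that of the full-length transcript, which stood at 51.6 FPKM with si-NC and 37.4 with si-v. EGFR-204, which encodes 405 codons and a secreted form of the extracellular part, stood at 0.896 and 0.949 FPKM. EGFR-211, which starts inside the gene, stood at 0.796 and 0.697. EGFR-203 and EGFR-207 stayed below 0.5 FPKM in both. The 4 shorter transcripts together rest on about 66 and 72 fragments, a log2 ratio of 0.00 with an interval of -0.49 to 0.51 that overlaps that of EGFR-201 (-0.52 to -0.41). Whether the ratios of full-length and shorter forms differ was not tested.

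ERBB3 (ENSG00000065361.15; chr12:56076799-56103505, plus strand, GRCh38) had the lowest level of the 6, at 1.61 FPKM with si-NC and 1.03 with si-v (log2 -0.37). Its transcripts went different ways. ERBB3-201, the full-length receptor of 1342 codons, stood at 0.681 FPKM with si-NC and 0.806 with si-v. ERBB3-213, which encodes 462 codons of the intracellular end, stood at 0.709 and 0.202, and ERBB3-202, of 183 codons, at 0.222 and 0.0179. In the deposited values the lower sum thus came from the short transcripts, which rest on about 28 and 8 fragments together. Only 13.1% of the bases of ERBB3-213 are held by no other listed ERBB3 transcript. The part of the division of reads between the transcripts in this was not tested. The length-weighted log2 ratio of the short transcripts was -1.91 with an interval of -3.27 to -0.75, which lies below 0. That of ERBB3-201 was 0.24 with an interval of -0.34 to 0.86. For the whole gene about 72 and 65 fragments gave a length-weighted log2 ratio of -0.27 with an interval of -0.77 to 0.24, so no difference in the summed level of ERBB3 was detectable at this depth.

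Of the ligand genes, HBEGF (ENSG00000113070.7; chr5:140332843-140346631, minus strand, GRCh38) had the highest level. It encodes heparin-binding EGF-like growth factor, which binds EGFR and ERBB4. Its 1 listed transcript, HBEGF-201, stood at 22.0 FPKM with si-NC and 26.1 with si-v (log2 0.23). About 577 and 740 fragments gave an interval of 0.08 to 0.40 on the length-weighted scale, which lies above 0. Among all genes 30.0% had a ratio as high or higher, so the value lies well inside the general spread.

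AREG (ENSG00000109321.10; chr4:74445134-74455009, plus strand, GRCh38), the gene of amphiregulin, was level at 11.0 FPKM with si-NC and 10.9 with si-v (log2 -0.01). The main transcript AREG-201 stood at 10.4 and 10.9 FPKM, and AREG-202, with another end to its coding sequence, at 0.573 with si-NC and was listed at 0 with si-v. The second transcript rests on about 6 fragments with si-NC. The hg19 build carries a near-identical second copy of this gene, annotated as AREGB and removed from the later build, so fragments could have been split between copies and the AREG level is uncertain. The length-weighted interval for AREG was -0.32 to 0.35.

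TGFA (ENSG00000163235.15; chr2:70447280-70554193, minus strand, GRCh38), which encodes TGF-alpha, stood at 10.1 FPKM with si-NC and 8.97 with si-v (log2 -0.15). TGFA-201, of 160 codons, held 85.4% of this with si-NC and 88.8% with si-v, at 8.63 and 7.97 FPKM. TGFA-203, which is 1 codon shorter, stood at 0.548 and 0.525, and the incomplete TGFA-202 at 0.923 and 0.477 on about 6 and 3 fragments. The length-weighted interval of -0.32 to 0.08 includes no difference. Together the 3 ligand genes summed to 43.1 FPKM with si-NC and 46.0 with si-v.

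**Figure D4:**
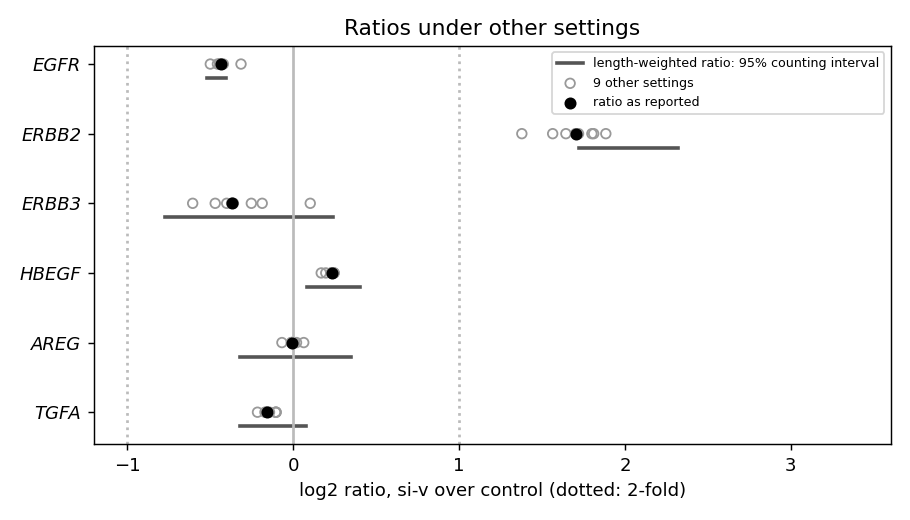
Log2 ratio of si-v over control (horizontal axis, dotted lines at 2-fold) for the 6 genes: filled points are the ratios as reported, open points the 9 other settings, and bars the 95% counting interval of the length-weighted ratio. ERBB2 is at 1.71 and beyond 2-fold under each of the 9 settings, while the other 5 genes stay inside the dotted lines.

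Other genes of the pathway were taken by role from lists of 64 genes, of which 60 were listed and 56 passed the filter. At 2-fold 1 was higher and 0 were lower, against 2.37% and 2.49% of all genes. At 1.5-fold 5 were higher and 6 lower, against 9.82% and 8.91%. Their median log2 ratio was -0.03.

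**Figure D5:**
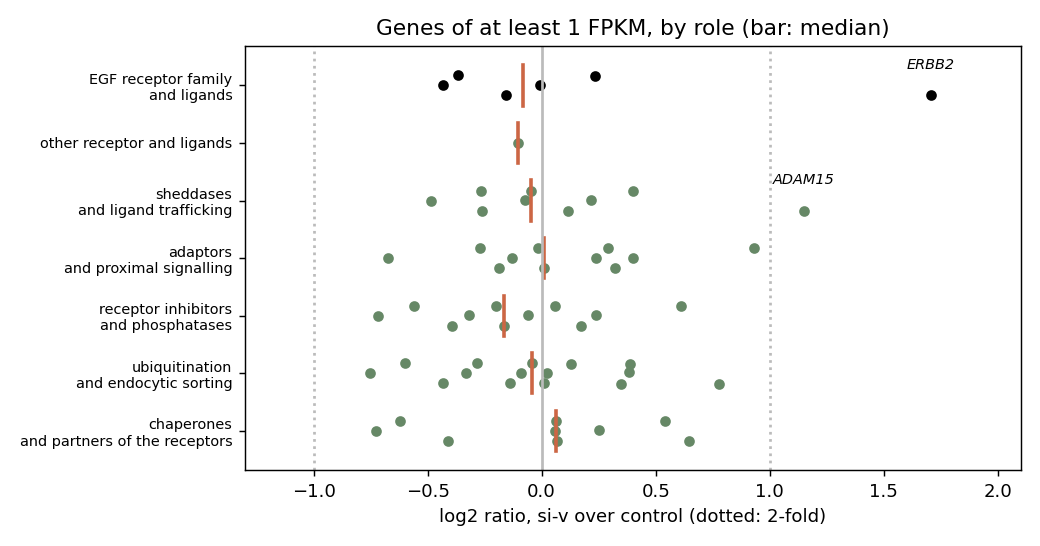
Log2 ratio of si-v over control (horizontal axis, dotted lines at 2-fold) for the 6 members (top) and the 56 other pathway genes of at least 1 FPKM, in rows by role, with a bar at each row's median. ERBB2 and ADAM15 are the only points beyond a dotted line.

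The other receptor and ligand genes of the family were mostly low. Neuregulin gene NRG1, whose product binds ERBB3 and ERBB4, was the only one of 8 past the filter, at 21.3 FPKM with si-NC and 19.8 with si-v (log2 -0.10, and 0.04 for its most abundant transcript alone). EGF stood at 0.592 and 0.681 FPKM, the betacellulin gene BTC at 0.325 and 0.0581, and NRG2 was listed at 0 in both. The receptor gene ERBB4 and the ligand genes EPGN, NRG3 and NRG4 were not analysed here.

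Among 9 sheddases and ligand trafficking genes, 1 was higher at 2-fold and the median was -0.04. ADAM15, a membrane metalloprotease gene, stood at 6.80 FPKM with si-NC and 16.3 with si-v (log2 1.15). With the trend of the ratio with GC content and length removed it was at 0.96, just under 2-fold. The ADAM10 value, for the protease that releases EGF and betacellulin, was 21.4 and 15.0 (-0.49). ADAM9 stood at 128 and 106 (-0.27), though its most abundant transcript alone gave 0.05. The inactive rhomboid gene RHBDF2, whose product brings ADAM17 to the surface, stood at 13.1 and 17.6 (0.40). RHBDF2 was at 0.11 when read as fragments, 0.18 with the trend removed and 0.67 from the most abundant transcript. ADAM17 itself, the main protease of amphiregulin, HB-EGF and TGF-alpha, was level at 21.5 and 20.8 (-0.04).

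Among 11 measured adaptor and proximal signalling genes 0 differed by 2-fold, with a median of 0.01. GRB2, the adaptor that links the receptors to RAS activation, was the highest at 16.9 FPKM with si-NC and 33.2 with si-v (log2 0.93). It passed 2-fold when read as fragments (1.08) or from the most abundant transcript alone (1.79). The RAS exchange factor gene SOS1, whose product GRB2 carries, stood at 13.3 and 7.94 (-0.67), and SOS2 at 10.4 and 8.45 (-0.27). GAB1, a docking protein gene, stood at 1.56 and 2.38 (0.40), but at -0.29 when read as fragments and -0.66 from the most abundant transcript.

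Among 11 genes of receptor inhibitors and phosphatases 0 differed by 2-fold, with a median of -0.17. SOCS4 was the lowest at 8.05 FPKM with si-NC and 4.51 with si-v (log2 -0.72), followed by LRIG1, a membrane inhibitor of the family, at 6.20 and 3.88 (-0.56). PTPN2, a phosphatase gene, was the highest at 22.3 and 34.6 (0.61), though its most abundant transcript alone gave -1.55. PTPRK stood at 8.83 and 10.6 (0.24), but its most abundant transcript alone gave -0.30.

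Among 15 genes of ubiquitination and endocytic sorting 0 differed by 2-fold, with a median of -0.04. STAM and STAM2, whose products sort ubiquitinated receptors on endosomes, stood at 33.8 and 19.6 FPKM (log2 -0.75) and at 8.98 and 5.59 (-0.60). EPN1, an endocytic adaptor gene, stood at 41.8 and 72.4 (0.78). The deubiquitinase gene USP8 stood at 11.8 and 15.7 (0.39), but at -0.14 when read as fragments, while its most abundant transcript was over 2-fold higher.

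Among 9 chaperones and membrane partners 0 differed by 2-fold, with a median of 0.06. CDC37, a kinase co-chaperone of HSP90, stood at 126 FPKM with si-NC and 198 with si-v (log2 0.64), and the mucin gene MUC1 at 0.512 and 1.20 (0.54). With a pseudocount of 0.1 in place of 1, MUC1 passed 2-fold (1.09). It was at 0.60 when read as fragments, 0.35 from the most abundant transcript and 0.28 with the trend removed. MUC1 rests on about 22 fragments with si-NC and 50 with si-v, and it reached 1 FPKM with si-v alone. The galectin gene LGALS3 stood at 23.4 and 13.7 (-0.73) and the tetraspanin gene CD9 at 35.1 and 22.5 (-0.62). For the most abundant transcript alone both passed 2-fold, at -1.25 for LGALS3 and -2.51 for CD9.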

How the data were processed

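RNA-seq of 2 libraries, 1 per group, was used. Per the submitters' processing notes, reads went through cutadapt, HISAT2 2.0.5 and StringTie on hg19, with no role or setting given; for the annotation release and strand setting, nothing was given in the sources used here. The authors' deposited values per transcript were read as FPKM from their sums, since the header names no unit. Transcript IDs were matched without version to GENCODE release 29 (99.5% of 39605), used for symbols, lengths, sequences and GRCh38 positions. FPKM was summed per gene (12918 genes, 11046 at 1 FPKM or more in a library). The log2 ratio used a pseudocount of 1 and the threshold was 2-fold. Fragment numbers are approximate: a peak among low values times length, at 91.1 and 84.1, was taken as 1 fragment. Intervals are exact Clopper-Pearson at 95% on these fragments and cover counting error only, not the division of reads among transcripts or the variation between cultures. The members and lists were chosen with earlier results of these data known. For each role the 2 highest and 2 lowest ratios were named, and all members; ADAM17, STARD3, MIEN1 and PGAP3 were added after their values were seen. Only the log2 ratio per gene and its 2-fold threshold were tested on simulated data, not the fragment numbers, the intervals or the transcript groups. Alternatives were other pseudocounts, scalings, filters, thresholds and ways to read a gene. Python 3.11.15, pandas 2.3.3 and scipy 1.17.1 were used.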

Additional observations from a re-analysis of the deposited data

How the results depend on the processing

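No paired analysis was possible because each group had 1 library, and for the same reason no library could be left out. ERBB2 stayed at 2-fold or more under 9 of 9 settings, from 1.38 for its most abundant transcript, ERBB2-210, to 1.88 with a pseudocount of 0.1. EGFR stayed below 0 in 9 of 9, at -0.50 when scaled without genes of the mitochondrial genome and -0.31 with the trend with GC content and length removed. ERBB3 turned to 0.10 for its most abundant transcript, ERBB3-201, and AREG lay on both sides of 0, from -0.07 to 0.06. HBEGF stayed above 0 (0.17 to 0.25) and TGFA below (-0.21 to -0.10). The number of other pathway genes that were 2-fold higher went from 1 to 2 with a pseudocount of 0.1 and on fragments per gene, to 3 from the most abundant transcript (4 lower) and to 0 with the trend removed, where ADAM15 was at 0.96; at 1.5-fold it was 5 higher and 6 lower. Over all genes the 262 higher and 275 lower became 486 and 473 with a pseudocount of 0.1, 683 and 706 from the most abundant transcript, and 1085 and 984 at 1.5-fold. Depth limited ERBB3, AREG and single transcripts of the members. The cause of these shifts was not tested, beyond the lower threshold and the fewer transcripts read per gene.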

Other observations

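NRG1, the 1 other ligand gene of the family at 1 FPKM or more, had 9 listed transcripts. NRG1-201 stood at 8.82 FPKM with si-NC and 9.12 with si-v and NRG1-202 at 4.49 and 3.76. NRG1-207 stood at 2.45 and 3.47, and the short NRG1-205 at 2.29 and 0.233, on about 14 and 2 fragments. The gene's level (21.3 and 19.8 FPKM) was close to that of HBEGF with si-NC.

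EGF was listed through 1 transcript in each library: EGF-206 stood at 0.592 FPKM with si-NC and was listed at 0 with si-v, while EGF-201 was listed at 0 with si-NC and stood at 0.681 with si-v. About 29 and 40 fragments lie behind these values, and the gene did not pass the 1 FPKM filter. Its 2 transcripts went opposite ways while its sum was near level (log2 0.08). The part of the division of reads between the transcripts in this was not tested.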
